A study of Drosophila melanogaster with 4 samples.

Results

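Genes of fat storage were followed in Drosophila melanogaster larvae mutant for invadolysin, a zinc metalloprotease known to sit on the surface of lipid droplets. The set holds 10 genes chosen by name: the droplet coat genes Lsd-1, Lsd-2 and Jabba, the lipase genes bmm and Hsl, and the synthesis genes mdy, Gpdh1, FASN1, ACC and Desat1. A gene counted as measured where a probe carried its symbol and no other. This held for 9 of the 10 genes, through 11 probes, out of 11980 named genes and 13891 features in the table. Hsl, the hormone-sensitive lipase gene, had no such probe and was not analysed here.

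Each of the 4 two-colour arrays set RNA of 1 sample of larvae carrying the invadolysin allele 4Y7 against RNA of 1 sample of Canton S wild-type larvae, and the series describes 4 biological replicates. Replicates 1 and 4 carried mutant RNA labelled with Cy5, and replicates 2 and 3 had the dyes swapped. A temperature of 25 degrees is recorded for the wild-type stock. The labels give the stage only as larva, and the sources used here do not give the age in days, the sex, the zygosity of 4Y7, the number of larvae per sample or the genetic background of the mutant stock. Values are ratios on a log2 scale, mutant over wild type, and hold no brightness, so levels of the genes and the presence of a tissue could not be read from them. In RNA of whole larvae, fewer fat-storing cells and less RNA per cell cannot be told apart.

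Lipid droplets are stores of neutral fat, in larvae mostly in the fat body, the organ that takes the part of liver and adipose tissue in insects. Acetyl-CoA carboxylase and fatty acid synthase build fatty acids, a desaturase adds double bonds to them, and acyltransferases join them to a glycerol backbone to make triacylglycerol. Perilipins coat the droplet and set how far lipases reach the fat inside it.

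The titles are the sole basis for the direction of the ratios, which is therefore only likely, and the opposite direction would turn every sign below. That the arrays with the mutant in Cy3 had already been turned is inferred from arrays of opposite orientation correlating positively over probes (mean r = 0.217, and 0.035 without replicate 1). Were they not turned, the means would be 0.024 for Lsd-1, 0.12 for Gpdh1, 0.015 for FASN1 and 0.031 for Desat1, and limma called 0 features with that coding (1053 at an unadjusted p under 0.05). Replicate 4 stood apart from the others, with r of 0.213, 0.031 and 0.0391 with replicates 1, 2 and 3. Between arrays of the same orientation, r was 0.651 for replicates 2 and 3 and 0.213 for replicates 1 and 4.

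The coat gene Lsd-1 and the glycerol-3-phosphate dehydrogenase gene Gpdh1 were lower in the mutant, at 42.2% and 37.3% of the wild-type value, and were the 2 members past the threshold. FASN1, ACC and Desat1, the genes of fatty acid synthesis and desaturation, had means below 0 but did not pass, and Lsd-2, Jabba, bmm and mdy had means from 0.025 to 0.25. Among all features 0.821% passed the same test (114 of 13891) and 0.425% were lower past it. The test was limma's moderated test of the log2 ratio against 0, with Benjamini-Hochberg adjustment over the whole table and a threshold of 0.05. Both calls lay close to that threshold and were lost when any 1 of the 4 arrays was left out (limma adjusted p from 0.0554 to 0.217) and when a term for dye orientation was fitted (limma adjusted p = 0.0633 for each).

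**Figure D1:**
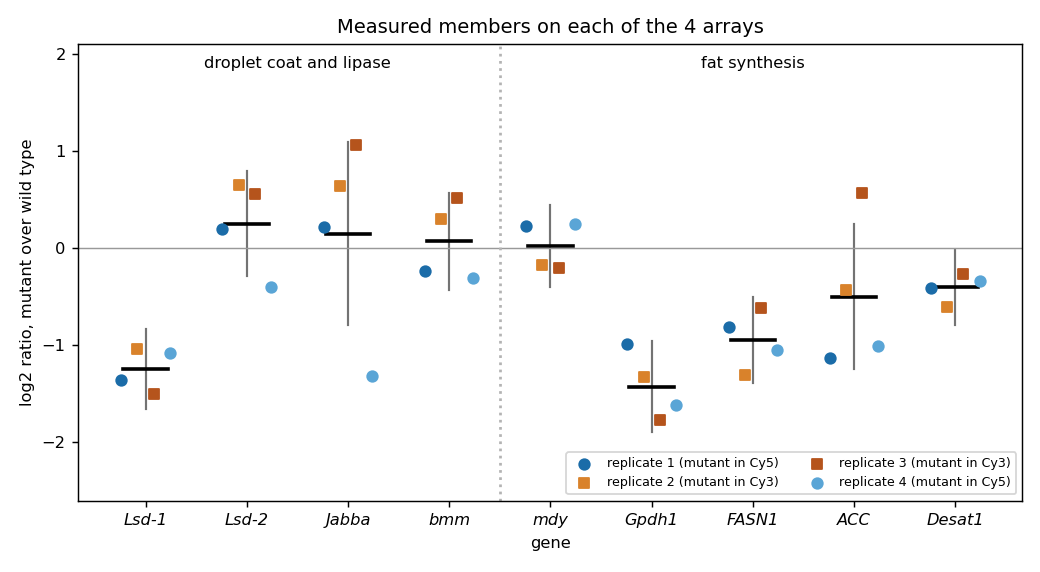
Log2 ratios of mutant over wild type (vertical axis) for the 9 measured genes (horizontal axis), with 1 point per array, black bars for the mean and grey lines for limma's 95% interval of the mean. All points of Lsd-1, Gpdh1, FASN1 and Desat1 lie below 0, while those of Lsd-2, Jabba, bmm, mdy and ACC lie on both sides.

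Lsd-1 encodes a perilipin that coats droplets and takes part in hormone-stimulated release of fat. Its log2 ratios were -1.36, -1.03, -1.50 and -1.08 on replicates 1 to 4. All 4 arrays were low and close to each other, and on the single arrays the gene lay among the lowest 2.66%, 4.89%, 2.99% and 8.50% of features. The mean was -1.24 ± 0.22 (SD, n = 4), a 2.37-fold lower value with a 95% interval from 31.7% to 56.1% of wild type (limma adjusted p = 0.0455).

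Lsd-2, the other perilipin gene, encodes a coat protein known to shield stored fat from lipases. Its values were 0.19, 0.65, 0.56 and -0.40 on replicates 1 to 4. Replicates 1 to 3 were above 0 and replicate 4 was below it. The mean was 0.25 ± 0.48 (SD, n = 4), with a 95% interval from 81.8% to 173% of wild type (limma adjusted p = 0.568). With 1 array left out the mean ran from 0.12 to 0.47, highest without replicate 4 (limma adjusted p from 0.149 to 0.916).

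The perilipin genes stood apart on every array, since Lsd-1 was below Lsd-2 by between 0.68 and 2.06 log2 units. The mean difference, Lsd-1 minus Lsd-2, was -1.50 ± 0.58 (SD, n = 4), lower on 4 of 4 arrays. An exact two-sided sign-flip permutation test over arrays gave p = 0.125, the smallest that 4 arrays allow, and 0.312 after Benjamini-Hochberg adjustment over the 5 pairs compared, so this design could not place the difference past 0.05.

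Jabba encodes a droplet protein known for holding histones on droplets in the fly embryo. Its values were 0.21, 0.64, 1.06 and -1.32 on replicates 1 to 4, the widest spread of the 9 measured genes. Replicate 4 was far below the other arrays, which were all above 0. The mean was 0.15 ± 1.04 (SD, n = 4), with a 95% interval from 57.7% to 213% of wild type (limma adjusted p = 0.862), and with 1 array left out it ran from -0.16 to 0.64, highest without replicate 4 (limma adjusted p from 0.130 to 0.998). The difference of Lsd-1 minus Jabba was -1.39 ± 1.17, lower on 3 of 4 arrays (exact two-sided sign-flip p = 0.25, adjusted 0.417).

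The gene bmm encodes brummer, the main triacylglycerol lipase of the fly fat body and a relative of mammalian adipose triglyceride lipase. Its values were -0.23, 0.30, 0.51 and -0.30 on replicates 1 to 4. The value was below 0 on both arrays whose mutant RNA was in Cy5 and above 0 on the swapped arrays. The mean was 0.07 ± 0.40 (SD, n = 4), with a 95% interval from 74.4% to 148% of wild type (limma adjusted p = 0.881).

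Among the genes for glycerolipid synthesis, Gpdh1 encodes the cytosolic enzyme that makes glycerol-3-phosphate, the backbone of triacylglycerol. Averaged over its 3 probes, its log2 ratios were -0.99, -1.33, -1.77 and -1.62 on replicates 1 to 4. All arrays were low, and the gene lay among the lowest 5.69%, 2.34%, 2.01% and 2.94% of features on them. The mean was -1.42 ± 0.34 (SD, n = 4), a 2.68-fold lower value with a 95% interval from 27.0% to 51.5% of wild type (limma adjusted p = 0.0455).

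The 3 Gpdh1 probes shared a direction on every array and differed in size. The first had values of -0.38, -0.62, -0.91 and -1.07 on replicates 1 to 4, with a mean of -0.75 ± 0.31 (SD, n = 4). The second had values of -1.63, -2.40, -2.71 and -1.57, with a mean of -2.08 ± 0.57. The last had values of -0.95, -0.95, -1.68 and -2.21, with a mean of -1.45 ± 0.61. The second probe was thus lower than the first on all 4 arrays, and tested singly the second passed (limma adjusted p = 0.0412) while the first and last did not (0.117 and 0.0696). The sources used here do not give which transcripts each probe matches.

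**Figure D2:**
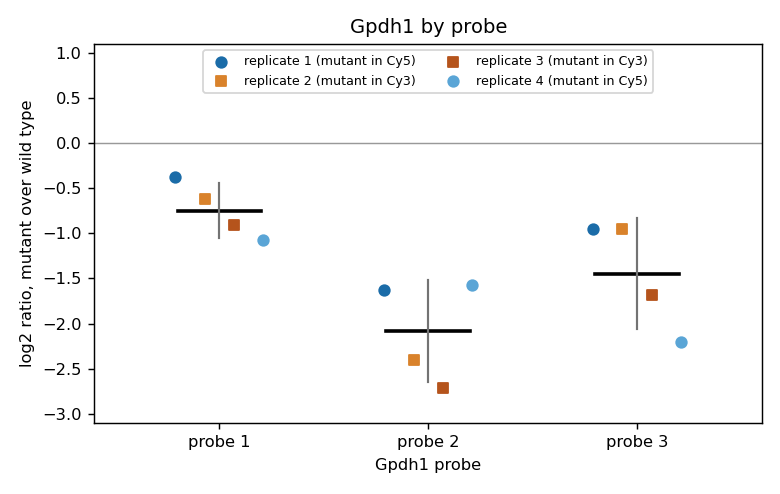
Log2 ratios of mutant over wild type (vertical axis) for the 3 probes of Gpdh1 (horizontal axis), with 1 point per array, black bars for the mean and grey lines for 1 SD either way. Every point lies below 0, from -0.38 to -2.71, and the second probe lies lowest on average.

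The gene mdy (midway) encodes the diacylglycerol acyltransferase that makes triacylglycerol in its last step. Its values were 0.23, -0.17, -0.21 and 0.25 on replicates 1 to 4. The value was above 0 where mutant RNA was in Cy5 and below 0 on the swapped arrays. The mean was 0.025 ± 0.25 (SD, n = 4), with a 95% interval from 76.0% to 136% of wild type (limma adjusted p = 0.951). Gpdh1 minus mdy was -1.45 ± 0.33, lower on 4 of 4 arrays (exact two-sided sign-flip p = 0.125, the smallest possible here, adjusted 0.312).

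FASN1 encodes a fatty acid synthase expressed in the fat body. Its values were -0.81, -1.30, -0.61 and -1.04 on replicates 1 to 4. All 4 arrays were below 0, with a mean of -0.94 ± 0.30 (SD, n = 4) and a 95% interval from 38.2% to 70.7% of wild type. The gene missed the threshold over the whole table (limma adjusted p = 0.0748, unadjusted p = 0.00184).

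ACC encodes acetyl-CoA carboxylase, which supplies the malonyl-CoA that the synthase uses. Its values were -1.13, -0.43, 0.57 and -1.01 on replicates 1 to 4. Replicate 3 was above 0 and the others below, and the mean was -0.50 ± 0.78 (SD, n = 4), with a 95% interval from 42.1% to 118% of wild type (limma adjusted p = 0.418). It was -0.29 without replicate 1 and -0.86 without replicate 3 (limma adjusted p from 0.269 to 0.705 with 1 array left out). FASN1 minus ACC was -0.44 ± 0.70, lower on 3 of 4 arrays (exact two-sided sign-flip p = 0.375, adjusted 0.469).

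Desat1 encodes the stearoyl-CoA desaturase that introduces the first double bond into saturated fatty acids. Its values were -0.41, -0.61, -0.26 and -0.33 on replicates 1 to 4, below 0 on all arrays and within the smallest range of the 9 measured genes. The mean was -0.40 ± 0.15 (SD, n = 4), with a 95% interval from 57.8% to 98.8% of wild type, and the gene did not pass (limma adjusted p = 0.245, unadjusted p = 0.0430).

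Counted together, 4 of the 9 measured genes (Lsd-1, Gpdh1, FASN1 and Desat1) were below 0 on all 4 arrays, and 0 were above 0 on all 4. Among all features 14.9% were below and 14% above 0 on all arrays. The same 4 genes had an unadjusted p under 0.05 in limma, which 19.2% of all features had. Lsd-1 and Gpdh1 lay close to each other, with a difference of 0.18 ± 0.39 (SD, n = 4) whose sign varied between arrays (exact two-sided sign-flip p = 0.5, adjusted 0.5). Centring, scale normalization and quantile normalization between arrays turned the sign of 0 of the 9 means.

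The droplet coat and lipase genes were then set against the synthesis genes. The mean log2 ratio of Lsd-1, Lsd-2, Jabba and bmm was -0.30, 0.14, 0.16 and -0.77 on replicates 1 to 4. That of mdy, Gpdh1, FASN1, ACC and Desat1 was -0.62, -0.77, -0.46 and -0.75. The synthesis mean was below 0 on all arrays (-0.65 ± 0.14, SD, n = 4), and the median of the synthesis genes varied more (-0.67 ± 0.32). The coat and lipase mean was above 0 on replicates 2 and 3 and below it on replicates 1 and 4 (-0.19 ± 0.44). The difference, coat and lipase minus synthesis, was 0.33, 0.91, 0.62 and -0.02 on replicates 1 to 4 (0.46 ± 0.40), so the means were level on replicate 4. With medians in place of means the difference was 0.79, 1.08, 0.80 and 0.27 on replicates 1 to 4. It is given with no test because the genes were chosen with results of these data known. Single genes moved the difference of means: with Lsd-1 left out it was 0.81, and with Gpdh1 left out 0.26.

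**Figure D3:**
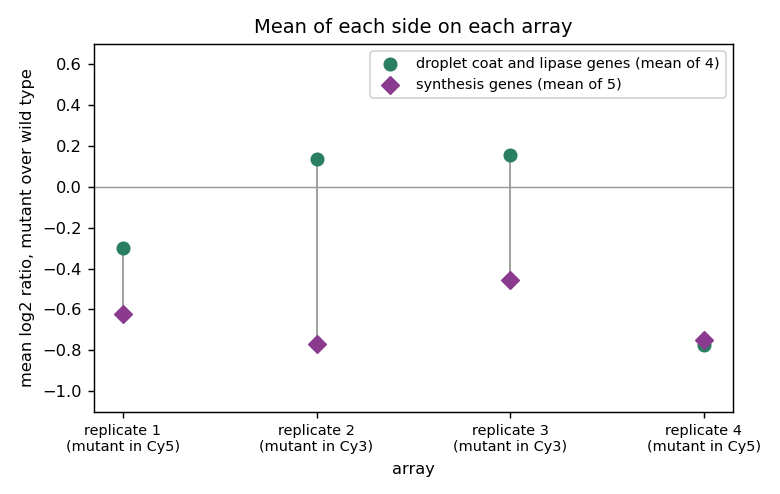
Mean log2 ratio of mutant over wild type (vertical axis) of the 4 droplet coat and lipase genes (circles) and the 5 synthesis genes (diamonds) on each array (horizontal axis), joined by a grey line. The synthesis mean stays between -0.46 and -0.77, and the coat and lipase mean runs from 0.16 on replicate 3 to -0.77 on replicate 4.

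Dye orientation was the batch known from the labels. Means over replicates 1 and 4 (mutant in Cy5) and over replicates 2 and 3 (mutant in Cy3) were -1.22 and -1.27 for Lsd-1, -1.30 and -1.55 for Gpdh1, -0.93 and -0.96 for FASN1, and -0.37 and -0.44 for Desat1. These 4 genes were low in both orientations. The means were -0.10 and 0.60 for Lsd-2, -0.55 and 0.85 for Jabba, -0.27 and 0.41 for bmm, 0.24 and -0.19 for mdy, and -1.07 and 0.068 for ACC, so the means of these 5 genes differed in sign between orientations. The share of all features whose orientation means differed in sign was not counted. For Lsd-2 and Jabba only replicate 4 was below 0, and for ACC only replicate 3 was above 0. For bmm and mdy the sign was split without exception, as it was for 17.2% of all features. A limma fit with a term for the orientation gave an adjusted p between 0.305 (ACC) and 0.973 (FASN1) for that difference, and called 0 features in the whole table for it. The side difference was 0.15 over replicates 1 and 4 and 0.76 over replicates 2 and 3.

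**Figure D4:**
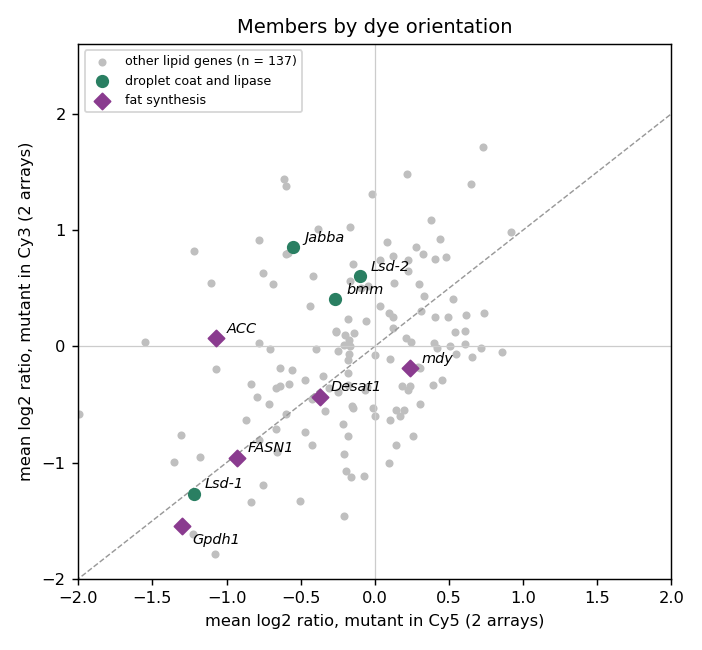
Mean log2 ratio over the 2 arrays with the mutant in Cy3 (vertical axis) against that over the 2 arrays with it in Cy5 (horizontal axis). Shown are the 9 measured genes and 137 other genes of the lipid lists (grey), and the dashed line marks equal values. Gpdh1, Lsd-1, FASN1 and Desat1 lie near the line and below 0, and Jabba, Lsd-2, bmm and ACC lie above the line.

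From 6 lists, 137 other genes of lipid metabolism, droplets, transport and regulation were measured, with COPI subunits, His2Av and general signalling genes among them. Of the 137, 0 rose and 0 fell at the threshold over the whole table, where 0.821% of all features passed. Below 0 on all 4 arrays were 35 of them (25.5%), against 14.9% of all features. The 35 include alphaCOP, betaCOP, gammaCOP, epsilonCOP and His2Av, whose roles are not limited to lipid. Above 0 on all arrays were 18 (13.1%), against 14%. The median log2 ratio of the 137 was -0.069, and that of all features was 0.015.

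In the list of fatty acid synthesis, elongation and desaturation, 0 of 28 genes passed, 11 were below 0 on all arrays, and the median was -0.27. The 11 include scu (mean -0.45), whose enzyme is known for fatty acid oxidation and not for synthesis. The values of bond, a fatty acid elongase gene, were -1.30, -0.93, -0.98 and -1.06 on replicates 1 to 4 (mean -1.07 ± 0.16, SD, n = 4, limma adjusted p = 0.0537). Pgd, whose enzyme supplies NADPH through the pentose phosphate pathway, was at -1.43 ± 0.53 (limma adjusted p = 0.0597). Acbp2, an acyl-CoA binding protein gene, was at -1.09 ± 0.64 (limma adjusted p = 0.115). None of these genes passed, and all were below 0 on 4 of 4 arrays.

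In the list of glycerolipid and triacylglycerol synthesis 0 of 25 genes passed, 9 were below 0 on all arrays, and the median was -0.15. The list also holds Gpo2 (-0.04) and Gpo3 (0.31), genes for oxidation of glycerol-3-phosphate and not for glycerolipid synthesis. Gpo3 was the 1 gene of the list above 0 on all arrays. Agpat3, an acyltransferase gene of the step after Gpat, was at -0.98 ± 0.34 (SD, n = 4, limma adjusted p = 0.0762). The gene bbc, for a choline or ethanolamine phosphotransferase, was at -0.59 ± 0.11 (limma adjusted p = 0.129), and Gpat4, a glycerol-3-phosphate acyltransferase gene, at -1.03 ± 0.71 (limma adjusted p = 0.140). Agpat3, bbc and Gpat4 were below 0 on 4 of 4 arrays and none passed.

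The other droplet proteins and droplet formation genes, a list that includes the COPI coat subunits and His2Av, had 0 of 14 past the threshold, 6 below 0 on all arrays and a median of -0.59. The genes below 0 on all arrays were alphaCOP, betaCOP, gammaCOP, epsilonCOP, His2Av and sturkopf, so most were COPI subunits. Ldsdh1, Hnf4, SelT, Rab18, Rab40 and klar varied in sign between arrays, as did zetaCOP and deltaCOP. Of these, Hnf4 encodes a nuclear receptor and also stands in the list of regulators, and SelT encodes a selenoprotein. Neither is read here as a droplet protein. COPI coats are known to deliver proteins to droplets as well as to carry cargo from the Golgi. The subunit gene betaCOP was at -0.80 ± 0.19 (SD, n = 4, limma adjusted p = 0.0822). His2Av, a histone variant that Jabba holds on embryonic droplets, was at -0.69 ± 0.17 (limma adjusted p = 0.102), and sturkopf, a droplet-associated hydrolase gene, at -0.61 ± 0.19 (limma adjusted p = 0.133). The list's median lay between -0.51 and -0.40 on each of the 4 arrays, replicate 4 included. The -0.59, a median of gene means, was thus lower than the median on any single array. It was also lower than with any 1 array left out (-0.54 to -0.42).

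The other lipases and genes of lipid breakdown had 0 of 28 past the threshold, 7 above 0 on all arrays and 3 below. Their median was 0.28, with 11 of the 28 means below 0. Lip4, a lipase gene, was at 0.95 ± 0.42 (SD, n = 4, limma adjusted p = 0.0903). CG5966, a lipase-family gene, was at 1.22 ± 0.71 (limma adjusted p = 0.103), and Lip1 at 0.62 ± 0.21 (limma adjusted p = 0.132). All were above 0 on 4 of 4 arrays and none passed.

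Regulators of fat storage, with 27 genes, and lipid transport genes, with 16, also had 0 past the threshold, with medians of -0.0034 and -0.00065. The insulin receptor gene InR was at 1.02 ± 0.50 (SD, n = 4, limma adjusted p = 0.0955). SREBP, a factor known to drive genes of fatty acid synthesis in flies, was at -0.38 ± 0.26 (limma adjusted p = 0.303), and below 0 on 4 of 4 arrays, and S2P, the protease that releases it, was at 0.37 ± 0.20 (limma adjusted p = 0.284). In the transport list, the fatty acid binding protein gene fabp was at -0.75 ± 0.31 (limma adjusted p = 0.115), Mtp, which loads lipid onto lipoproteins, at -0.92 ± 0.58 (limma adjusted p = 0.136), and Apoltp, a lipid transfer particle gene, at 0.47 ± 0.32 (limma adjusted p = 0.250).

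**Figure D5:**
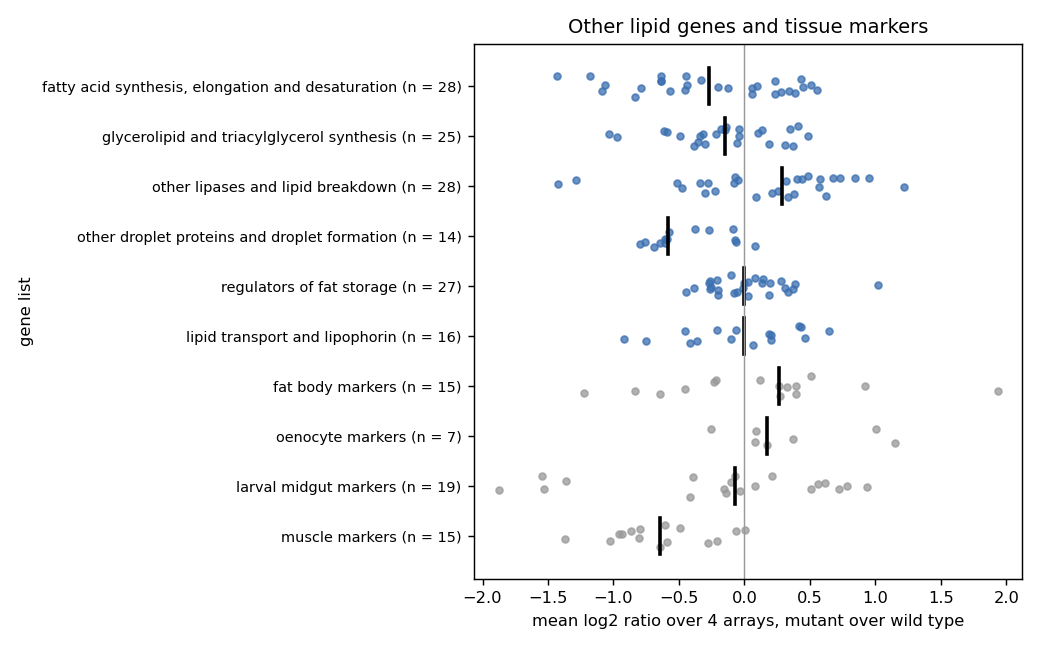
Mean log2 ratio over the 4 arrays of mutant over wild type (horizontal axis) for each gene of 6 lipid lists (blue) and 4 tissue marker lists (grey), by list (vertical axis), with black bars for the medians. The medians run from -0.65 for muscle markers to 0.28 for the other lipases.

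Markers of tissues that whole larvae hold were read on the same arrays. The fat body list had 1 of 15 genes rise, where 0.396% of all features rose, and 0 fall, with a median of 0.26 and medians of 0.72, 0.37, -0.019 and -0.046 on replicates 1 to 4. Idgf1, which blood cells are also known to express, was the one that rose (1.93 ± 0.50, SD, n = 4, limma adjusted p = 0.0400). That call was lost with any 1 array left out (limma adjusted p from 0.0554 to 0.217) and with a dye term (0.0509). Idgf3 was at 0.92 ± 0.18 (limma adjusted p = 0.0656). The list also holds the yolk protein genes Yp1 (-0.64), Yp2 (0.39) and Yp3 (-0.22), and fit (0.51). These are known from the fat body of adult females, so the counts and medians of the list do not stand for larval fat body alone. Of the 15 means 6 were below 0. On all 4 arrays 2 genes were above 0 and 1 was below, against 14% and 14.9% of all features. The gene below 0 on all arrays was Adgf-A (-0.83 ± 0.34, limma adjusted p = 0.0984). Named after their values were seen, the larval storage protein gene Lsp2 was at 3.91, 0.60, -6.44 and 1.001, and the fat body protein gene Fbp2 at 3.53, -0.36, -2.02 and -0.05 on replicates 1 to 4. Lsp2 thus spanned over 10 log2 units between replicates 1 and 3, and its relation to the values of Lsd-1 and Gpdh1 was not tested.

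Oenocytes, cells that take up and process fat, were represented by 7 genes, with a median of 0.17. Of these 1 rose, where 0.396% of all features rose, and 0 fell. The gene that rose was CG18609, an elongase-family gene (1.15 ± 0.19, SD, n = 4, limma adjusted p = 0.0487). The call of CG18609 was lost with any 1 array left out (limma adjusted p from 0.0554 to 0.220), with a dye term (0.0633), and under scale and quantile normalization (0.0549 and 0.0585). Cyp4g1, an oenocyte cytochrome P450 gene, was at 1.01 ± 0.70 (limma adjusted p = 0.144). In the midgut list 0 of 19 genes passed, with a median of -0.07 and medians of 1.32, -0.41, 0.54 and -1.34 on replicates 1 to 4. Jon25Biii, a gut protease gene, was at -1.53 ± 0.70 (limma adjusted p = 0.0712), and the amylase gene Amy-d at 0.94 ± 0.35 (limma adjusted p = 0.0817). In the muscle list 0 of 15 genes passed and 9 were below 0 on all arrays, with a median of -0.65 and medians of -0.62, -0.78, -0.96 and -0.07 on replicates 1 to 4. Msp300, a gene for a large actin-binding protein of muscle, was at -1.03 ± 0.61 (limma adjusted p = 0.119) and SERCA, the calcium pump gene, at -0.61 ± 0.21 (limma adjusted p = 0.137). The part of these tissues in the values of Lsd-1 and Gpdh1 was not tested.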

How the data were processed

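The authors deposited a log ratio for each probe on each array, read here as log2 of mutant over wild type. The sources used here do not give its base, centring, normalization or direction. Column medians lay within 0.02 of 0, and no background or brightness could be examined. The platform annotation gave a single symbol to 12658 of 14569 probes, several to 96 and none to 1815. Probes of a gene were averaged per array, giving 13891 features with no filter on low values. The mean of each feature was compared with 0 in R 4.3.3 using limma 3.58.1 (lmFit, eBayes, two-sided, Benjamini-Hochberg over all features, threshold 0.05). The number of arrays limits the precision. Only the limma fit was run on simulated data, with independent errors of equal spread on all 4 arrays. The real arrays were less even, so that run does not cover their differences. The side differences, list counts and turning of arrays were not simulated. Intervals are limma's at 95%. Pairs of genes were compared by exact sign-flip permutation over arrays.

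The 10 genes and the lists were chosen with earlier results of these data known. List genes were matched by symbol, 12 of 243 entries through a gene ID, and 201 entries (190 distinct genes) were used; CCT1 (a chaperonin subunit gene, -0.70) and Mgat2 (an N-glycan enzyme gene, -0.06) were taken out of the glycerolipid list after their values were seen, with which 36 of 139 genes were below 0 on all arrays; some genes stand in more than 1 list. All measured members are named, and of each list the genes past the threshold or else the 3 (markers 2) with the smallest p; in marker lists with a gene past it, both. Alternatives were each array left out, array weights, an orientation (dye) term, quantile and scale normalization, centring, single probes, turned arrays, single orientations, an ordinary t statistic and robust eBayes. Tables and plots used Python 3.11.15, pandas 2.3.3, numpy 2.4.6 and matplotlib 3.10.9.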

Additional observations from a re-analysis of the deposited data

Results flagged for a closer look

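The log2 ratio of bmm was below 0 on both arrays with the mutant in Cy5 and above 0 on both with it in Cy3, a difference of -0.67 between orientations (95% interval -1.36 to 0.01, limma adjusted p = 0.316). That of mdy did the opposite, with a difference of 0.43 (95% interval -0.23 to 1.09, limma adjusted p = 0.431). Such a split was found in 17.2% of all features and in 2 of the 9 measured members. The value of Amy-d on replicate 3 (1.46) lay far from the other arrays (0.71 to 0.83), with a gap of 0.843 of the whole range. This was 1 of 38 sets of 4 values examined, of which chance alone would set apart about 1 in 20.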

How the results depend on the processing

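Calls rested on the number of arrays and on how they were weighted. The count of changed features, 114 with all arrays, ran from 0 to 21 with 1 array left out. The members past the threshold were then 0. An unadjusted p under 0.05 in limma was then held by 3 to 6 members. Among all 13891 features it was held by 1456 to 4077 (2052 without replicate 1, where 0 were called). With a dye term limma called 0 features (3537 unadjusted) and 0 members (4 unadjusted). Only arrays with the mutant in Cy5 gave 4 features (1349 unadjusted) and 0 members (4 unadjusted). Only those with it in Cy3 gave 2573 features, 18.5% of the table, and 2 members. The ordinary t statistic called 1 feature (2267 unadjusted) and 0 members (4 unadjusted). Array weights (0.232 for replicate 4 to 5.47 for replicate 2) gave 6079 features, 43.8% of the table, and 6 members, adding Lsd-2 (0.57), Jabba (0.63), FASN1 (-1.13) and Desat1 (-0.52), with mdy turning to -0.14. Turning the arrays with the mutant in Cy3 gave 0 features (1053 unadjusted) and 0 members (0 unadjusted), a side difference of -0.30, and means of 0.024 (Lsd-1), -0.35 (Lsd-2), -0.70 (Jabba), -0.34 (bmm), 0.12 (Gpdh1), 0.015 (FASN1) and 0.031 (Desat1). Means that had not passed also changed sign elsewhere: Lsd-2 (-0.10), Jabba (-0.55) and bmm (-0.27) with the mutant in Cy5 only, mdy (-0.19) and ACC (0.068) with it in Cy3 only, mdy without replicates 1 and 4, and Jabba and bmm without replicates 2 and 3; with 1 array left out these ran from -0.051 to 0.10, from -0.16 to 0.64 and from -0.079 to 0.19. The cause was not tested. Lsd-1 and Gpdh1 passed under centring, scale and quantile normalization and robust eBayes, with 112, 99, 90 and 118 features called. The side difference ran from 0.31 to 0.62 with 1 array left out, and was 0.73 with medians of the genes. Leaving out genes and recomputing list medians without each array were chosen after seeing the data. Medians then ran from -0.40 to -0.13 (fatty acid synthesis), -0.22 to -0.080 (glycerolipid), -0.54 to -0.42 (droplet), 0.14 to 0.38 (other lipases), -0.20 to 0.22 (transport), -0.013 to 0.031 (regulators), -0.11 to 0.31 (fat body, lowest without replicate 1), 0.13 to 0.40 (oenocyte), -0.40 to 0.37 (midgut) and -0.81 to -0.54 (muscle). Each ratio pairs the mutant and wild-type sample of 1 array, so the test against 0 is already the paired one and no further replicate block could be fitted.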
